A study of Homo sapiens with 8 samples.

Results

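This account covers the genes without a coding name among those with an eIF4G2-bound region: long intergenic noncoding RNA genes (LINC names), antisense genes (names ending in -AS), divergent transcripts (-DT) and genes that carry an Ensembl identifier but no name. Binding was measured in cultured cardiac fibroblasts of human origin (the immortalized line IHCF) by RIP-seq, in which RNA that comes down with an antibody, here against eIF4G2, is sequenced. There were 8 libraries, 2 in each of 4 groups: cells infected with a lentiviral scramble control vector gave total RNA and RNA bound to eIF4G2, and so did cells infected with a lentiviral vector for full-length eIF4G2. The data used are the authors' 2 lists of bound regions, 1 for the control and 1 for the overexpression cells. Only the table names show which is which, and they also contain MOV10, an RNA helicase that is absent from the sample labels. The study asked which RNAs eIF4G2 binds in these cells, and the lists show where RNA was called, with no count, score, strand or value per replicate. A difference between the lists therefore has no replicate check and no test, and all intervals below are 95% Wilson intervals that cover counting error only.

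Members were taken by name alone, from genes that a region lay inside, overlapped or included. Of 861 such genes, 179 were members and 682 were not; the latter are called outside genes. The members were 128 unnamed genes, 34 antisense genes, 10 divergent transcripts and 7 LINC genes, and no intronic transcript (-IT) was listed. The label noncoding did not hold for every unnamed gene: Ensembl describes 55 of the 128 as transcripts of no stated kind (called plain transcripts below) and 44 as antisense transcripts, but 10 as proteins, 7 as pseudogenes and 1 as a microRNA. Another 6 carry Ensembl's TEC tag for unsettled models, 3 are described as sense intronic and 2 as overlapping a gene on its own strand.

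Long noncoding RNAs are transcripts that have no long reading frame, and many of them are spliced and polyadenylated like messenger RNAs. Antisense genes are transcribed from the strand opposite a coding gene, and divergent transcripts start beside a coding gene's promoter and run away from it. eIF4G2 (also called DAP5) is a relative of the scaffold eIF4G1 that lacks the site for the cap-binding protein eIF4E and serves translation of a subset of messenger RNAs. Selection for poly(A) before library construction keeps noncoding transcripts with a tail and loses those without.

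Several antisense and divergent members had a region over their own start, which lets the sequence be shown. Of the 51 named members, 40 have a RefSeq window (GRCh38.p14) of 300 bases, 250 before the start and 50 from the start on, and 18 of these windows lay under a region of the member, 7 in control and 15 in overexpressing cells. Only the regions over the windows of NOP14-AS1, FAM13A-AS1, NUTM2A-AS1, LINC00863 and KDSR-DT were clear of outside genes. The rest of the 18 windows lay under regions also over an outside gene, so RNA there cannot be given to the member. They include the windows of HNRNPD-DT, with regions over HNRNPD, and of GAR1-DT, with a region over GAR1. The 4 windows printed show the kinds of placement by the RefSeq start. The NOP14-AS1 region, in both lists, and the HNRNPD-DT region begin ahead of that start and cross it. The GAR1-DT region ends just short of it, and the KDSR-DT region begins past it. Positions along members given elsewhere follow Ensembl spans, whose starts differ. By those spans the NOP14-AS1 and HNRNPD-DT regions shown lie wholly inside the member, and the GAR1-DT region crosses its start. Each window is written 5′ to 3′ on the member's strand, and capitals mark bases under a listed region.
NOP14-AS1 (chr4:2935296-2935595, plus strand, control list): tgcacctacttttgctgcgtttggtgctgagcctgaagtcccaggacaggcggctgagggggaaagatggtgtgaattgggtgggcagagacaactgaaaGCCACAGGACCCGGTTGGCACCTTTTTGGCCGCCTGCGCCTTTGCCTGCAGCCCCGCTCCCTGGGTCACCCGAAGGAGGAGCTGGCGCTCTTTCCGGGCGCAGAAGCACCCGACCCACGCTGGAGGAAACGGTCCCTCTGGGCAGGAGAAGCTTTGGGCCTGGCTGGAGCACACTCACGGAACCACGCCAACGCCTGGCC
HNRNPD-DT (chr4:82374318-82374617, plus strand, overexpression list): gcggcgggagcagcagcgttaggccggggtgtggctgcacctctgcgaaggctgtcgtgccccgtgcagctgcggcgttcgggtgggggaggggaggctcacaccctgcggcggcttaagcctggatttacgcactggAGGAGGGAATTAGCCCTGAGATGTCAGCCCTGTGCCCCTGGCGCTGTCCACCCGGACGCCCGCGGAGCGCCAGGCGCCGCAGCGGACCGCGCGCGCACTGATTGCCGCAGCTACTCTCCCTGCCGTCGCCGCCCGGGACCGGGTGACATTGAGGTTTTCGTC
GAR1-DT (chr4:109815333-109815632, minus strand, control list): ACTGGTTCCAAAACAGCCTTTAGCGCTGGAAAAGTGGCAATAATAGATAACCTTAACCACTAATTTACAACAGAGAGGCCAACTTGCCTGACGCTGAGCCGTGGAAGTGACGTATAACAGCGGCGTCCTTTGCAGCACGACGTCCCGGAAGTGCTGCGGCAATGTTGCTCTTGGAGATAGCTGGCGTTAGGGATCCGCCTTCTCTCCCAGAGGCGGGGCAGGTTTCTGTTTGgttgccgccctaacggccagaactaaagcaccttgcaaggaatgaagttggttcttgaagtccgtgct
KDSR-DT (chr18:63367074-63367373, plus strand, overexpression list): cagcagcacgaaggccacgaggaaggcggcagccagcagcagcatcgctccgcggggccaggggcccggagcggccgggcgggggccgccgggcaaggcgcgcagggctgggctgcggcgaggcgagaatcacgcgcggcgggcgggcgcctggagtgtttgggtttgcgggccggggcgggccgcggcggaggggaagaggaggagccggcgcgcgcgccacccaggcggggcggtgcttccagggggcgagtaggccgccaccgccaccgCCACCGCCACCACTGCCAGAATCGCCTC

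In the NOP14-AS1 window the region covered 200 bases, and it reached 150 bases ahead of the RefSeq start in both lists. The HNRNPD-DT region of the overexpression list began 112 bases ahead of the RefSeq start. GAR1 encodes a protein of the H/ACA ribonucleoprotein particles, and the region over its divergent transcript covered 232 bases of the window and ended 18 bases short of the RefSeq start. The KDSR-DT region covered only the last 28 bases of its window. The 18 windows under a region held a median of 21 CG dinucleotides and 60.3% G and C, against 23 and 60.0% in the 27 other member windows (some genes have several) and 14 and 58.7% in all 35116 windows. On chromosome 4, windows of 6 of 22 members lay under a control region and of 4 under an overexpression region. The shares over all 1297 genes with a window on that chromosome were 5.01% and 1.70%. On chromosome 18 it was 6 of 12 members in the overexpression list, with 7.41% over all 553 genes with a window. A gene enters this group of members only through a region, so these member shares are descriptions and were not tested.

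The lists as used here cover few chromosomes, and this sets where members can differ between them. Whether they are complete is not known, so a member that stands in 1 list alone is not shown to be unbound in the other condition. Chromosome 4 held 1185 of the 1224 control regions and 491 of the 1986 overexpression regions. Chromosome 18 held 1339 overexpression regions and 0 control regions, for every kind of gene. Chromosome 10 held 29 and 121, and all other chromosomes together 10 and 35. On chromosome 4 the shortest member region was 200 bp in control and 400 bp in overexpression. Widths moved in steps: on chromosome 4, 73.5% of member regions in control and 68.3% in overexpressing cells were whole multiples of 200, 205 or 215 bp (the shortest and the 2 most common widths), as were 78.7% on chromosome 18. Equal boundaries in both lists have to be read with that grid in view. None of 10 fibroblast, 4 myofibroblast, 6 cardiomyocyte, 4 endothelial and 4 macrophage marker genes had a region in either list; PDGFRA, VIM, ACTA2 and KDR are the 4 that lie on chromosomes 4, 10 or 18. The lists thus give no check of the cell type.

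More members had a region with eIF4G2 overexpressed than in control cells, and chromosome 18 made up the excess. A region was listed for 81 members in control and for 137 in overexpressing cells. By gene, 98 of 179 members (54.7%) were overexpression-only, 42 (23.5%) control-only and 39 (21.8%) in both lists. Over all 861 listed genes these shares were 45.3%, 26.4% and 28.3%. All 70 members on chromosome 18 belonged to the overexpression list only, which the absence of control regions there fixes. On chromosome 4, which both lists cover, the order turned: of 87 members 39 (44.8%, 34.8 to 55.3) were control-only, 13 (14.9%, 8.95 to 23.9) overexpression-only and 35 (40.2%, 30.6 to 50.7) in both. All genes listed on chromosome 4 gave 43.3%, 9.09% and 47.6%, and the 386 outside genes gave 43.0%, 7.77% (5.50 to 10.9) and 49.2%. The first and the last lie inside the members' intervals and the overexpression-only share lies below its interval; the intervals themselves overlap, and no difference was tested. Chromosome 10 had 15 members, 2 control-only, 11 overexpression-only and 2 in both lists.

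**Figure D1:**
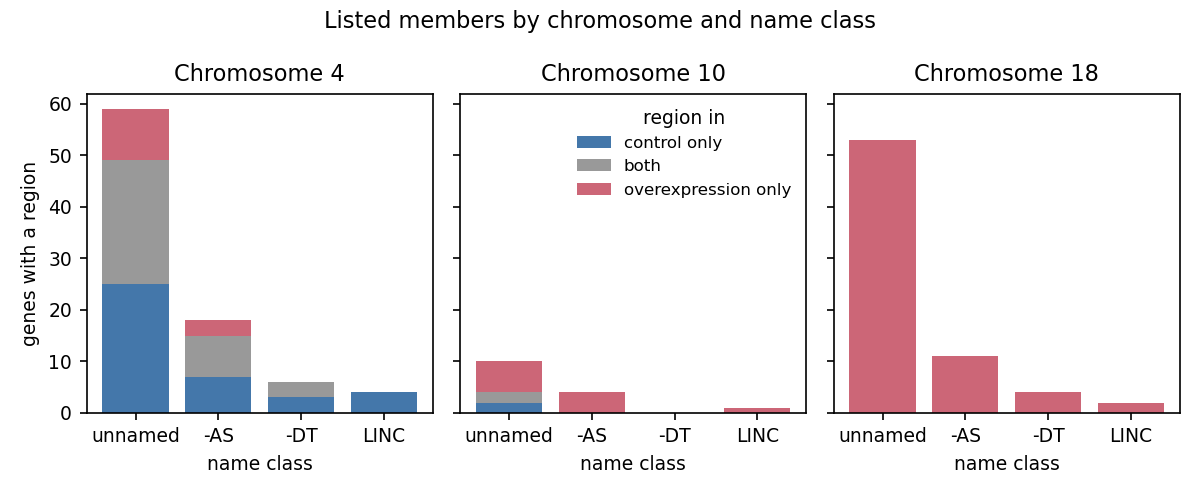
Stacked bars give the number of member genes with a listed region on chromosomes 4, 10 and 18, by name class, split by the list that held the region. Chromosome 4 holds 39 control-only members, 35 in both lists and 13 overexpression-only, whereas all 70 on chromosome 18 come from the overexpression list.

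By name class, the members fell into the lists as follows. No LINC gene had a region in both lists: 4, all on chromosome 4, were in control and 3 in overexpressing cells. Of the 34 antisense genes 9 were in both, 7 control-only and 18 overexpression-only. Of the 10 divergent transcripts 3 were in both, 3 control-only and 4 overexpression-only. Of the 128 unnamed genes 27 were in both, 28 control-only and 73 overexpression-only. The shares of all listed genes are those given above. The counts are small, chromosome 18 members can stand only in the overexpression list, and the classes were not tested against each other.

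Set against all genes of the annotation, a smaller share of noncoding than of coding genes lay under a region on chromosomes 4, 10 and 18. On chromosomes 4 and 18 the share was smaller for LINC than for antisense or divergent names; on chromosome 10 it was not smaller than for divergent names, and no difference was tested. By position, 43.6% of the 770 RefSeq coding genes of chromosome 4 lay under a control region and 27.3% under an overexpression region, against 6.85% (5.44 to 8.60) and 3.63% (2.63 to 4.98) of 992 long noncoding genes. Long noncoding genes that overlap a coding gene reached 14.9% and 7.95% of 302, and those clear of coding genes 3.33% and 1.74% of 690. LINC names came to 2.11% and 0.704% of 142, antisense names to 21.7% and 15.7% of 83, and divergent names to 25.6% and 17.9% of 39. On chromosome 18 the overexpression list covered 60.4% of 270 coding genes, 9.29% of 463 long noncoding genes, 34.2% of 38 antisense names, 4 of 9 divergent names and 2 of 71 LINC names. Of those clear of coding genes there, 4.10% of 317 were under a region. On chromosome 10 the control list covered 4.36% of 734 coding genes and 0 of 863 RefSeq long noncoding genes, for which counting error allows up to 0.443%. RefSeq and the Ensembl genes of the lists differ, however. In the lists 4 chromosome 10 members had a control region, the plain transcripts ENSG00000224195 and ENSG00000239665 among them. On chromosome 4, RefSeq gave 3 LINC names in control and 1 in overexpression, where the lists gave 4 and 0 LINC members. The overexpression list covered 9.13% of the coding genes, 13 long noncoding genes (1.51%) and 0.743% of the 538 that are clear of coding genes. By name it covered 1 of 123 LINC, 7 of 110 antisense and 0 of 24 divergent genes there, and the control list covered none of them. Coding genes are longer, with a median of 43.0 kb on chromosome 4 against 12.5 kb for long noncoding genes, and the part of length in these shares was not tested. Median lengths of LINC and divergent genes there were closer together, at 19.6 and 21.3 kb.

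**Figure D2:**
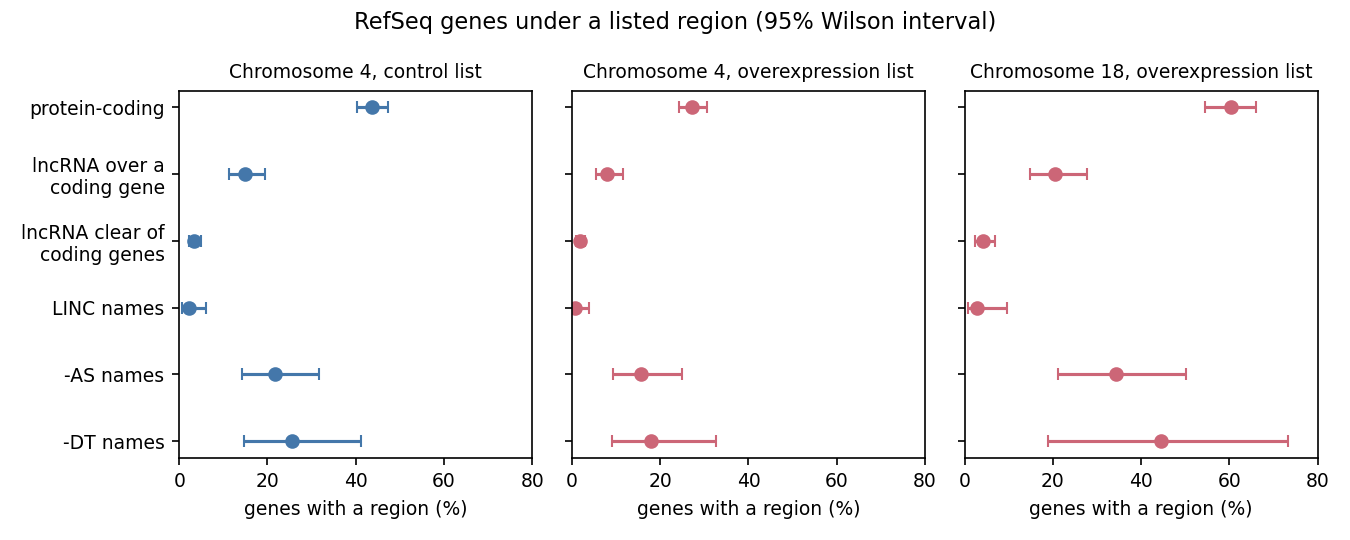
Points give the percentage of RefSeq genes of each type that lie under a listed region, with 95% Wilson intervals, for chromosome 4 in each list and chromosome 18 in the overexpression list. Coding genes stand at 43.6%, 27.3% and 60.4%, while LINC names stay at 2.11%, 0.704% and 2.82%.

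A region over a member often lay over another gene too, so its RNA cannot be given to the member. Member regions made up 171 of 1224 control regions (14.0%, 12.1 to 16.0) and 373 of 1986 overexpression regions (18.8%, 17.1 to 20.6). Of these, 95 (55.6%, 48.1 to 62.8) and 255 (68.4%, 63.5 to 72.9) also lay over an outside gene. On chromosome 4 the lists were close, at 54.8% (47.2 to 62.2) and 56.1% (45.3 to 66.3), and the higher share came from chromosome 18, at 72.7% (67.0 to 77.7). The ATP8B1 gene alone lay under 26 of the 373 overexpression member regions and NDUFV2 under 18. More than 1 member lay under 17 of the 171 control member regions (9.94%) and 63 of the 373 overexpression ones (16.9%). Such regions enter the sums of each of those members. The outside genes lay on the strand opposite the member in 81 of 107 pairs of region and member in the control list (75.7%) and in 202 of 297 in the overexpression list (68.0%). Since regions have no strand, RNA of the member and of the gene opposite cannot be told apart there. In the outside genes, 44.8% (35.6 to 54.3) of the shared control regions had their centre in the last 10% of the gene, close to the 38.2% (35.3 to 41.1) of regions that lay over no member; in the overexpression list it was 35.7% and 34.5%. Shared regions lay in the first 10% of the outside gene in 20.0% (13.5 to 28.6) and 12.5% (9.08 to 17.0), against 9.14% and 6.70% of the others, in pairs of region and gene.

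This overlap differed by class, which the names partly fix. LINC genes are named as intergenic, and antisense genes for lying opposite another gene. LINC members were mostly clear: 0 of 7 pairs in control and 2 of 15 (13.3%) in the overexpression list also lay over an outside gene. For divergent transcripts it was 4 of 10 and 3 of 20 (15.0%), for named antisense genes 27 of 43 (62.8%) and 54 of 87 (62.1%), and for unnamed antisense transcripts 19 of 34 (55.9%) and 114 of 130 (87.7%). In all, 86 members had at least 1 region clear of outside genes and 93 had none. RefSeq places a coding gene over 16 of the 76 clear control regions and 16 of the 118 clear overexpression regions. That left 60 control and 102 overexpression regions, in 74 members, over no outside gene and no RefSeq coding gene.

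Regions over members recurred between the lists about as often as other regions did. On chromosome 4, 45 of 166 control member regions (27.1%, 20.9 to 34.3) overlapped an overexpression region, beside 26.9% of regions over outside genes only. In the other direction it was 50 of 82 (61.0%, 50.2 to 70.8) beside 66.6% (61.8 to 71.1). Regions over members alone gave 25.3% and 61.1%. No member region had both ends identical in the lists. Over all chromosomes the shares were 27.5% and 14.2%, and 267 of the 373 overexpression regions lay on chromosome 18, where no control region exists.

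Over all pairs of region and member, more region centres lay at the 5′ than at the 3′ end of the member, though not for every kind of member. Of pairs of region and member, 83.9% of 192 in control and 82.0% of 438 in overexpressing cells lay wholly inside the member, 8.85% and 9.82% crossed its start and 5.73% and 6.85% its end. The centre fell in the first 10% of the member in 21.9% (16.6 to 28.2) and 21.7% (18.1 to 25.8), and in the last 10% in 10.4% (6.84 to 15.5) and 9.59% (7.17 to 12.7). For regions over members alone the first 10% took 22.4% (14.8 to 32.3) of 85 and 31.9% (24.8 to 40.0) of 141 pairs, and the last 10% took 12.9% (7.38 to 21.7) and 9.22% (5.47 to 15.1); the control intervals overlap. Named antisense members had 11 of 43 and 31 of 87 pairs in the first 10%, and 4 and 6 in the last. Plain transcripts had 8 of 68 and 21 of 121 in the first 10%, and 7 and 13 in the last, so in control the ends were nearly equal. Under 50% of the region lay inside the member in 18 of 192 and 40 of 438 pairs, so summed widths below include bases beyond the member. Regions of 1 member share a transcript and are not independent.

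**Figure D3:**
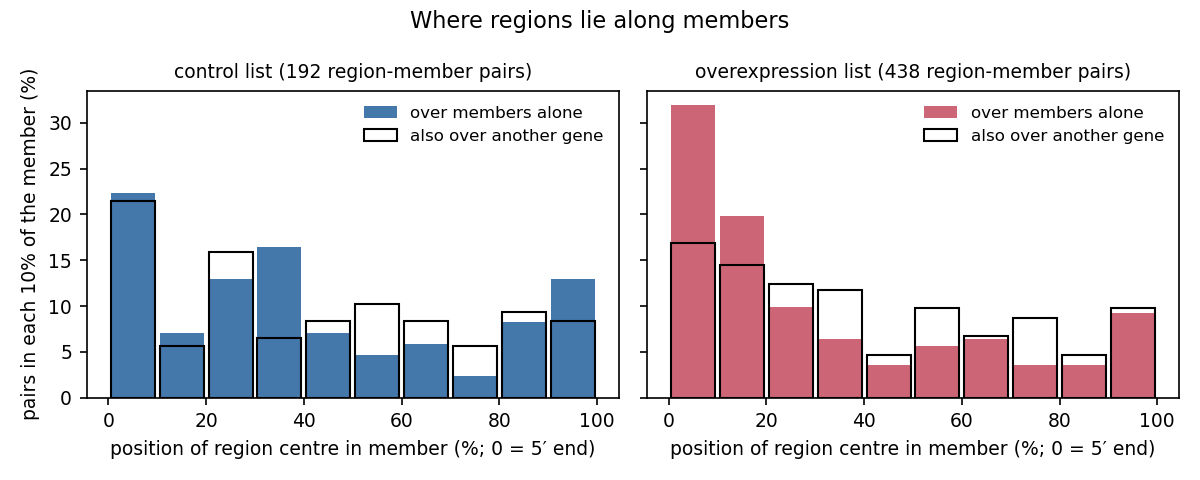
Bars give the percentage of region-member pairs whose region centre falls in each successive 10% of the member, from its 5′ end, for regions over members alone (filled) and regions also over an outside gene (outlined), in each list. The first bar is the tallest in both panels, reaching 31.9% for overexpression regions over members alone.

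Member regions had a median width of 600 bp in control and 410 bp in overexpression. Within the overexpression list the median was 845 bp on chromosome 4 and 265 bp on chromosome 18. A member had a median of 2 regions in each list and up to 12 and 31, and 35 of 81 and 46 of 137 members had a single region. Summed width per member ran from 220 to 10410 bp in the control list, with a median of 1455 bp, and from 205 to 15380 bp in the overexpression list, with a median of 1700 bp.

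Among members found in both lists, antisense genes had the most cover by the smaller of the 2 sums. UGDH-AS1, named for the gene of the enzyme that makes UDP-glucuronate for hyaluronan and other matrix sugars, had 5 control regions of 7035 bp in sum and 6 overexpression regions of 4880 bp. Of these, 3 in each list lay over no outside gene, in a cluster of 2090 bp in control and 1830 bp in overexpression at 7.6 to 11.2% of the gene's length. The others lay over SMIM14, which encodes a small membrane protein, and none lay over UGDH itself. Overlap with the other list held for 4 of the 5 control regions and 6 of the 6 overexpression regions. NOP14-AS1, opposite a gene of small ribosomal subunit assembly, had 7 control regions of 8565 bp and 5 overexpression regions of 4195 bp. NOP14 shared 6 of the former and 3 of the latter. The region clear of outside genes was 1605 bp wide in control and 645 bp in overexpressing cells and began at base 2935396 of chromosome 4 in both.

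TPT1-AS1 lies head to head with TPT1, the gene of the translationally controlled tumour protein, on chromosome 13. A control region of 3485 bp and an overexpression region of 4305 bp ran across both starts, and a further overexpression region of 1025 bp lay over the antisense gene alone. The unnamed antisense gene ENSG00000273149 shares the 2 wide regions and has only its last bases under the control region. UBA6-AS1, named for the ubiquitin-activating enzyme gene beside it, had 1 control region of 1720 bp and 2 overexpression regions of 2010 bp in sum, all clear of outside genes and all overlapping the other list. They also lie over the unnamed HEATR2 pseudogene ENSG00000270228. ENSG00000249592, antisense to the Polycomb gene PCGF3, had 6 regions of 5725 bp and 4 of 4595 bp, with 3 and 2 of them over PCGF3. The regions it held over members alone lay over a coding gene in RefSeq.

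Other members of both lists showed unequal cover. ENSG00000249207, a plain transcript that overlaps KLHL5, a Kelch-family gene, had 12 control regions of 10410 bp and 3 overexpression regions of 2105 bp. The widest, of 4945 bp, lay over KLHL5, and 7 control regions of 3635 bp in sum lay over members alone, of which 1 overlapped an overexpression region. RefSeq places a coding gene over all of them. ENSG00000287542 is described as the ubiquitin ligase HERC3 and is no noncoding gene; it had 2150 bp and 2905 bp. ENSG00000285458, described as a protein without a name, had 4205 bp in control and 645 bp in overexpression. These sums follow the caller's threshold in each list and have no depth behind them, so the direction between lists was not tested.

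**Figure D4:**
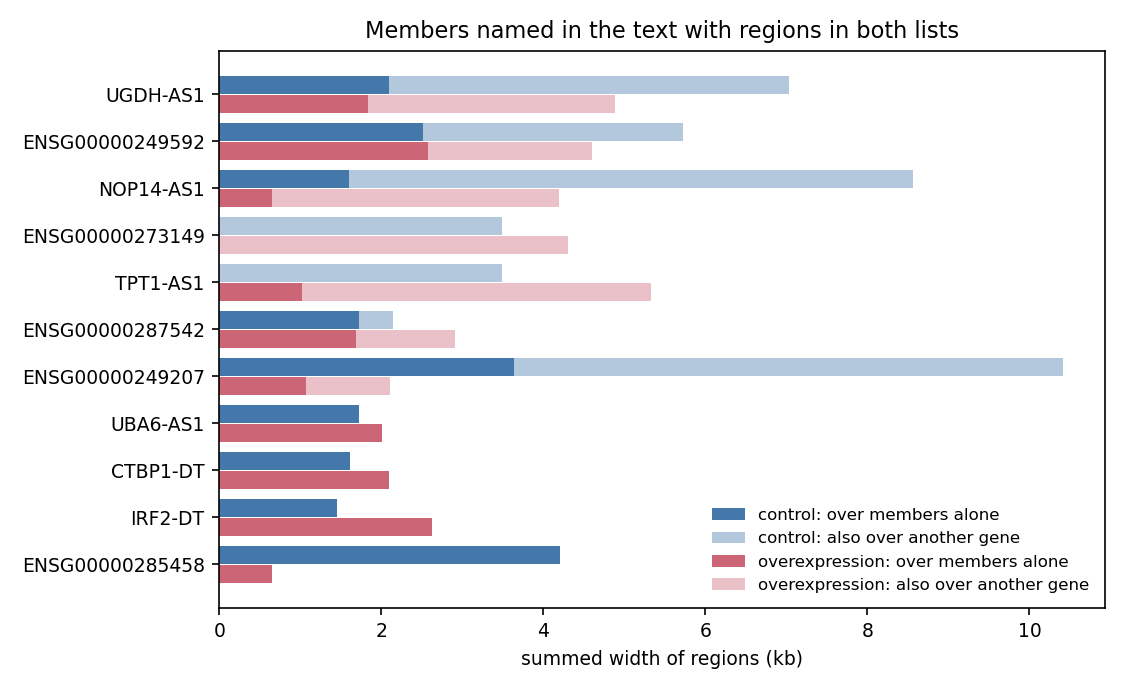
Paired bars give the summed width of regions in kb for 11 members with regions in both lists, control above overexpression, with the part over members alone in full colour and the part also over an outside gene in pale colour. UBA6-AS1, CTBP1-DT, IRF2-DT and ENSG00000285458 are wholly clear of outside genes, while ENSG00000249207 has 10410 bp in control and 2105 bp in overexpression.

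Divergent transcripts had regions clear of outside genes in 6 of 10 pairs of region and member in control cells and 17 of 20 with overexpression. Over all pairs, clear or not, the centre lay in the first 10% of the transcript in 4 of 10 and 7 of 20. IRF2-DT runs away from the gene of interferon regulatory factor 2. It had control regions of 860 and 595 bp and overexpression regions of 1670 and 955 bp, and the first overexpression region spans both control regions, with the same start (184474731) and end (184476400). CTBP1-DT, beside the corepressor gene CTBP1, had control regions of 215 and 1400 bp and overexpression regions of 860 and 1235 bp, all between 4.2 and 8.2% of its length. CTBP1 had 6 regions in each list and none of them was shared. HNRNPD-DT had 1 region in each list, 1720 and 1505 bp, both also over HNRNPD, the gene of an AU-rich element binding protein. SAP30-DT, with 615 bp, H2AZ1-DT, whose regions lay over DDIT4L, and GAR1-DT, with 10 bp of a 1010 bp region inside it, were control-only.

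In the overexpression list, ZNF236-DT on chromosome 18 had the widest cover of any divergent member: 11 regions of 205 to 1290 bp, 4185 bp in sum, all clear of outside genes. They fell into 2 clusters, at 1.9 to 15.2% and at 49.5 to 61.3% of its length. ZNF236, a zinc finger gene, had 3 regions of its own and shared none. KDSR-DT had 820 and 215 bp while KDSR, a gene of sphingolipid synthesis, had 10 regions and shared none. SETBP1-DT shared its only region with SETBP1, and the CEP192-DT region of 1720 bp lay over the nucleoporin gene SEH1L. Taking the divergent class as a whole, the coding partner was listed for 5 of 6 members in control and 6 of 7 in overexpressing cells, and shared a region with 2 in each. The shares of all RefSeq coding genes under a region are those given above.

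**Figure D5:**
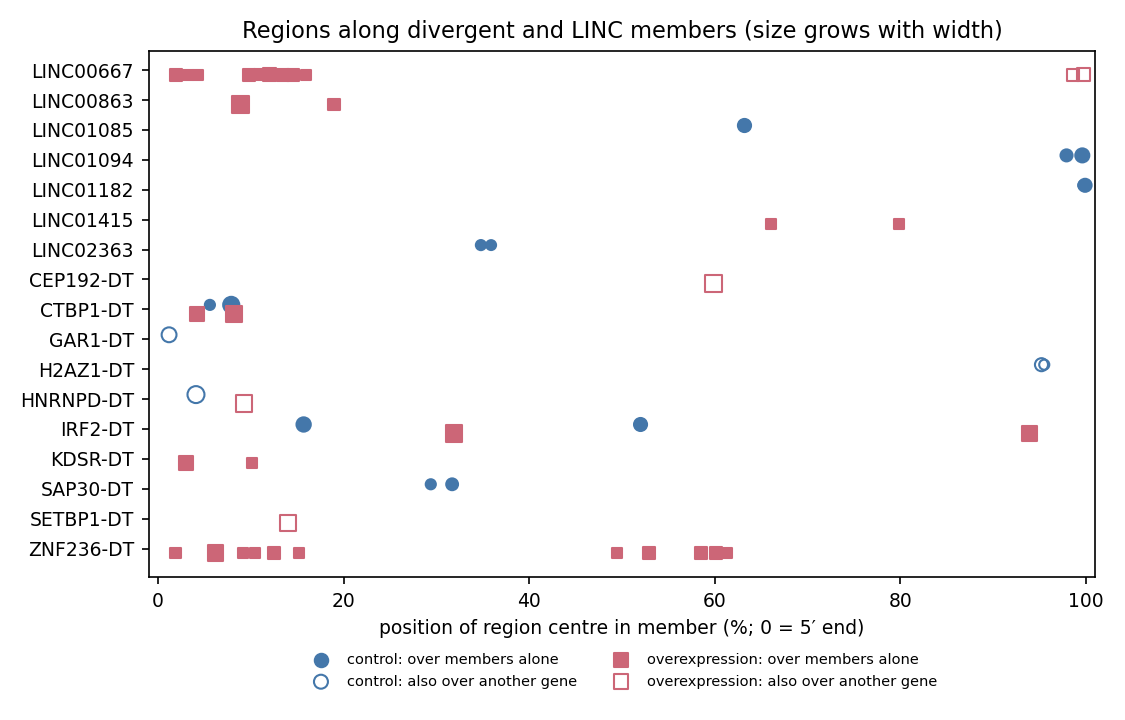
Each mark is a region centre placed along a LINC or divergent member from its 5′ end (0%) to its 3′ end (100%), control as circles and overexpression as squares, filled where no outside gene lies under the region; mark area grows with width. Regions of CTBP1-DT and KDSR-DT sit near the 5′ end, and those of LINC01094 and LINC01182 at the 3′ end.

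The LINC genes were few, and each had a region clear of outside genes. LINC00667 on chromosome 18 had 11 regions of 4290 bp in sum in the overexpression list. Of these, 9 of 205 to 645 bp lay between 2.0 and 16.0% of its length and over no outside gene, and 2 lay at its 3′ end over ZBTB14, a zinc finger gene. LINC00863 on chromosome 10 had 2 regions of 2460 bp. Its 2050 bp region crosses the start of NUTM2A-AS1, which lies head to head with it and had 4 regions of 3895 bp, all clear; NUTM2A was not listed. On chromosome 4, LINC01094 had control regions of 430 and 800 bp centred at 97.9 and 99.6% of its length. The unnamed ENSG00000287632 on the opposite strand holds the same 2 regions, so their RNA cannot be given to either gene. LINC01182 had 215 and 595 bp at 99.7 and 99.9%, LINC02363 had 200 and 215 bp near 35%, and LINC01085 a single region of 615 bp. LINC01415 had 205 and 215 bp in the overexpression list, both also over the unnamed ENSG00000267284 on the opposite strand. Pairs of LINC genes in the control list lay in the last 10% in 4 of 7 and in the overexpression list in 2 of 15; the region counts were too few for a comparison.

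The 8 control-only members described here have the widest summed regions when at most 4 unnamed genes are taken, and all lie on chromosome 4; a further 4 unnamed ones, of 2050 to 2505 bp, are wider than the 2 narrowest of these, THAP9-AS1 and OCIAD1-AS1. SHROOM3-AS1 and the unnamed ENSG00000224218 overlap and held the same 4 regions of 4915 bp, 3 of them clear and 1 over SHROOM3, the gene of an actin regulator of epithelial shape. AFAP1-AS1 had 3 regions of 4185 bp, the widest 3225 bp, all over AFAP1, which encodes an actin filament binding protein. ENSG00000284968, antisense to the elongation factor gene AFF1, had 2 regions of 4205 bp, of which 301 bp and 1075 bp lay inside it, both also over the protein gene ENSG00000285458 and over a RefSeq coding gene. Of these 2 control regions, 1 overlapped an overexpression region that does not meet this member. ENSG00000286176 had 1 region of 2615 bp inside WFS1, the gene of an endoplasmic reticulum membrane protein. ENSG00000250259 had 23 bp of a 2580 bp region over FGFRL1, a receptor gene of the fibroblast growth factor family. THAP9-AS1 had 2000 bp over SEC31A, a COPII coat gene, with no region over THAP9, and OCIAD1-AS1 had 890 and 1075 bp, both over OCIAD1. For 5 of these 8 no region was clear of outside genes.

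The 8 overexpression-only members taken in the same way all lie on chromosome 18; the unnamed ENSG00000267140 (5210 bp) and ENSG00000263424 (4945 bp) were passed over by that limit. Apart from LINC00667 and ZNF236-DT they shared 5 or more regions, or their only region, with a coding gene. ENSG00000267787 and ENSG00000267040 are both antisense to ATP8B1, a phospholipid flippase gene. The former had 29 regions of 15380 bp and the latter 20 of 9120 bp, of which 26 and 17 lay over ATP8B1 and 3 in each case, the same 3 regions of 205 to 235 bp, were clear. ENSG00000265257 runs on through NDUFV2, a gene of respiratory complex I, and ANKRD12. It had 31 regions of 14220 bp, 18 over NDUFV2, 12 over ANKRD12 and 1 of 410 bp clear of both. NDUFV2-AS1 had 14 regions of 5340 bp, 12 of them over NDUFV2, and all 14 are also regions of ENSG00000265257. PARD6G-AS1, beside a cell polarity gene, differed from these: 5 of its 10 regions, 2530 of 5845 bp, were centred within the first 13.4% of its length clear of PARD6G, and 5 lay over PARD6G.

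ENSG00000265496 is the gene model described as a microRNA, hsa-miR-1539. Its only region, of 6520 bp, ran from base 49488271 to 49494790 over RPL17, a ribosomal protein gene, the readthrough RPL17-C18orf32 and 3 SNORD58 small nucleolar RNA genes. The RefSeq hairpin, of 50 bases, ends 848 bases before that region begins, so the microRNA itself was not under it. The mature sequence is shown with its seed, bases 2 to 8, in capitals to mark what lay outside the region.
hsa-miR-1539: uCCUGCGCgucccagaugccc

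For most antisense members the coding partner was listed as well, but a region shared with the member lists both genes. The counts below are therefore partly fixed in advance and were not tested. Of all RefSeq coding genes on chromosome 4, 43.6% lay under a control region and 27.3% under an overexpression region. On chromosome 18, 60.4% lay under an overexpression region. Among named antisense members a gene they are described as antisense to had a region for 15 of 16 in control and 21 of 27 in overexpressing cells, and shared a region with 11 and 18. These counts include CYP2U1-AS1 through SGMS2 in control and NEUROG2-AS1 through ZGRF1 in overexpressing cells, while CYP2U1 and NEUROG2, the genes in their names, were not listed. For unnamed antisense transcripts, whose partner is given by the description, it was 13 of 16 and 33 of 35 listed, and 10 and 32 sharing. Where a partner was listed but no region was shared, as for UGDH-AS1, UBA6-AS1 and WDFY3-AS2, the regions of the member and of the partner lay apart. WAC-AS1 on chromosome 10 had an overexpression region of 3690 bp clear of outside genes, whereas WAC was listed for control cells alone. ZNF407-AS1 had 4 overexpression regions of 3575 bp without a region over ZNF407. These examples and those of the next paragraph were picked after their values were seen.

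A few members lie at genes of matrix and growth factor biology. IGFBP7-AS1, opposite an insulin-like growth factor binding protein gene, had 5 control regions of 4605 bp and 2 overexpression regions of 1405 bp; in each list 1 of them was shared with IGFBP7. HHIP-AS1 had 4 control regions, all over the Hedgehog-interacting protein gene HHIP, and 2 overexpression regions of 1000 and 430 bp clear of it. The CCBE1 antisense transcript ENSG00000267000 had 8 overexpression regions, all over CCBE1, a gene of lymphatic vessel growth. The CDH2 antisense transcript ENSG00000227279 had 3, all over the N-cadherin gene CDH2. The protein gene ENSG00000267699 had 9 regions of 3580 bp, 2 of them over SMAD4, the common mediator of TGF-β signalling. The NEDD4L antisense transcript ENSG00000267396 had 1 of 3710 bp, also over NEDD4L, with 1143 bp inside the member.

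Some members had regions away from coding genes in both lists. Counting only regions over no outside gene and no RefSeq coding gene, 34 members were left in control and 53 in overexpressing cells, and 13 of the 74 were in both. The 74 include members on chromosome 18, which can stand only in the overexpression list. By any region, 28.3% of all 861 listed genes were in both lists. On chromosome 4, where all 13 lie, it was 47.6%. UBA6-AS1 and the pseudogene ENSG00000270228 hold the same regions and count as 2 of the 13. For 12 of these 13 such a region overlapped the other list in each direction. They include UGDH-AS1, NOP14-AS1, UBA6-AS1, CTBP1-DT, IRF2-DT and TAPT1-AS1, whose control region of 1000 bp lay within its overexpression region of 1615 bp; the exception was IGFBP7-AS1. ENSG00000250938, antisense to the checkpoint gene MAD2L1, had a control region of 1220 bp that contains its overexpression region of 1055 bp, at 0.9% of its length. TAPT1-AS1 and ENSG00000250938 were chosen after their values were seen. A count this small has no replicate check. Among chromosome 4 regions over outside genes only, 26.9% of control and 66.6% of overexpression regions overlapped the other list. No difference from these was tested.

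Of 40 well-known long noncoding RNA genes, 2 lie on chromosomes 4, 10 or 18, DANCR and SNHG8, and only SNHG8 was listed. SNHG8, a small nucleolar RNA host gene, had 3 control regions of 2605 bp and 3 overexpression regions of 1430 bp. On the chromosomes with few regions, members were sparse: ENSG00000261641 over CLCN7 and ENSG00000280211 over RNF40 on chromosome 16, each with 1025 bp, ENSG00000232828 and ENSG00000261101 on the X chromosome over SUV39H1 and ARMCX3, all in the overexpression list, and ENSG00000278996 on chromosome 21 with 220 bp in the control list.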

How the data were processed

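Per the labels, libraries were made from DNase-treated, poly(A)-enriched RNA and read from both ends. Per the submitters' processing notes, bcl2fastq 2.19.0, Trimmomatic 0.36 and HISAT2 2.1.0 were used with GRCh38. How regions were called, at which threshold, whether against total RNA and with replicates pooled or not, is not stated in what was used here. The authors deposited 1 table of regions per condition; the deposited values are 1-based positions, widths and distances in bp, repeated per transcript, with no count or score, so depth is unknown and planned tests per replicate could not be run. There were 0 columns of per-sample values.

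Regions overlapped where they shared at least 1 bp. A member's span joins its transcripts that meet a region in either table. Outside genes came from the same rows. Of 51 named members 47 matched a RefSeq symbol (GRCh38.p14); RefSeq types were counted by position. Sequences are RefSeq's. Members, gene lists and the naming rule were chosen with earlier results of these data known. The text names the 8 members with the widest summed regions in each list only and in both (the smaller sum), the 3 widest of each class and the 10 widest over members alone, with at most 4 unnamed ones per group of 8 or 10; others are named as examples, or because a LINC or divergent class is small. The overlap step was checked on simulated regions: 200 of 200 planted among 491 were found. Python 3.11.15, pandas 2.3.3, numpy 2.4.6 and matplotlib 3.10.9 were used.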

Additional observations from a re-analysis of the deposited data

How the results depend on the processing

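No paired analysis was possible because the lists hold no values per replicate, and leaving out a replicate could not be run for the same reason. Of 56 alternative values, 28 stayed within the limits set for them and 28 moved; the cause was not tested beyond what each setting leaves out. Members listed in the control list, the overexpression list and both (81, 137 and 39) became 143, 216 and 67 with genes only nearest to a region, 26, 37 and 12 with named members only, and 41, 63 and 18 with regions over no outside gene; the overexpression count was 48 on chromosome 4 and 67 without chromosome 18. The share also over an outside gene rose in the control list from 55.6% to 64.9% with RefSeq coding genes added (chosen after the data were seen) and 64.1% by covered length; in the overexpression list it went from 68.4% to 48.8% (named members only), 76.2% (regions merged over 1000 bp) and 57.5% (without chromosome 18). The share overlapping the other list went from 27.5% to 13.5% (50% of both regions) and 38.4% (merged) in the control list, and from 14.2% to 61.0% (chromosome 4), 6.17% (50% of both), 23.4% (at least 400 bp), 19.5% (no outside gene) and 23.3% (merged) in the overexpression list. Pairs inside the member went from 83.9% to 89.4% (no outside gene) in the control list and from 82.0% to 75.6% (at least 400 bp) and 86.5% (no outside gene) in the overexpression list. The median overexpression width went from 410 to 845 bp (chromosome 4) and 860 bp (without chromosome 18).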
